A study of Rattus norvegicus with 6 samples.

Results

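The genes described here encode proteins that store transmitter in synaptic vesicles and fuse those vesicles with the plasma membrane. They are the 9 genes whose symbol in the deposited table is Syn1, Syp, Syt1, Cplx1, Snap25, Snap23, Stx1a, Vamp2 or Vamp3, out of 20609 genes in that table, and each symbol matched 1 row. RNA-seq was performed on 6 libraries of cells labelled as the rat pheochromocytoma line PC12, a tumor line of the adrenal medulla that the field uses as a model of neurosecretion. The control (Ctrl) libraries are 3 from cells given a control plasmid, and the PCBP1-OE libraries are 3 from cells given an EGFP-tagged plasmid that overexpresses the RNA-binding protein PCBP-1. All 6 share the cell line, its culture medium and poly-A selection. The methods describe transfection with a lipid reagent, the introduction of the paper calls the overexpression stable, and neither the harvest time of the RNA-seq cells nor the insert of the control plasmid is given in the sources used here. No row of the table was matched to Pcbp1, so the overexpression itself was not checked in these libraries.

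In regulated exocytosis, a vesicle SNARE (a VAMP protein) pairs with SNAREs of the plasma membrane (a syntaxin and a member of the Snap25 family), and the zippering of this complex pulls the membranes together. Synaptotagmins sense the calcium that triggers fusion, complexins bind the assembled SNAREs and regulate the last step, and synapsins tether vesicles to each other and to actin. Syn1, Syp, Syt1, Snap25, Stx1a and Cplx1 are best known from neurons and neuroendocrine cells, whereas Snap23 and Vamp3 serve fusion in most cell types.

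The libraries held between 19730209 and 22315623 counts on genes. Values are given as counts or as CPM, the count normalized to a library size that the TMM method of edgeR has scaled, and no transcript lengths were used, so levels are compared between libraries and not between genes. The marker genes of the chromaffin cell, the cell type from which PC12 derives, were mostly near 0 in all 6 libraries. Of these markers, 7 matched a row. Dbh, the enzyme that makes noradrenaline, had 0 to 5 counts per library, Ddc 0 to 4, Chga 0 to 3, Chgb 0 to 9 and the transcription factor gene Phox2a 1 to 7. Th, the rate-limiting enzyme of catecholamine synthesis, had 141 to 185 counts and the vesicular monoamine transporter gene Slc18a1 17 to 28. Among markers of other cell types, Sox10 had 7160 to 9007 counts per library, S100b 4143 to 5339 and Pdgfra 3939 to 4941, while Col1a1 had 61 to 74, Col3a1 23 to 43, Cd68 56 to 81 and Cd3e 52 to 79. Dcn, Ptprc, Itgam, Cdh5 and Kdr had at most 9 counts in any library. The markers thus went against the chromaffin identity that the label implies, in control and PCBP1-OE libraries alike, and the cells are called here the cells labelled PC12. The summed level of the chromaffin markers was 8.72 to 9.92 CPM in controls and 8.71 to 10.3 CPM in PCBP1-OE, which overlapped. The 4 fibroblast markers that matched (Col1a1, Col3a1, Pdgfra, Dcn) summed to 225 to 230 CPM in controls and 200 to 212 CPM in PCBP1-OE, and the leukocyte markers to 6.82 to 7.76 and 6.13 to 6.22 CPM, each without overlap. The fibroblast sum was nearly all Pdgfra, which averaged 223 CPM in controls and 203 CPM in PCBP1-OE. In the same order Col1a1 averaged 3.16 and 3.38 CPM and Col3a1 1.78 and 1.33 CPM. The leukocyte sum rested on 120 to 162 counts per library. The glial markers Sox10 and S100b averaged 399.7 ± 9.45 and 233 ± 13.1 CPM in controls and 367 ± 6.73 and 214 ± 4.28 CPM in PCBP1-OE (SD, n = 3 each), without overlap for Sox10 and with overlap for S100b. The endothelial markers, at 0.268 to 0.383 and 0.227 to 0.545 CPM, overlapped. None of these markers was called changed by edgeR. An unadjusted p under 0.05 in the same test was found for 2 of 3 tested glial and 1 of 3 tested fibroblast markers. It was found for 0 of 2 tested chromaffin and 0 of 2 tested leukocyte markers, and for 28.4% of all genes tested. The groups of normalized values did not overlap for 30.6% of all genes tested. In bulk RNA, fewer cells of a type and less RNA per cell cannot be told apart.

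Of the 9 members, 7 had enough counts to be tested, and 2, Syt1 and Syp, did not. Sequence upstream of the transcription start is shown for the pair of members left under the filter and for Vamp2 and Syn1, which were well counted, so that the promoters of the pairs can be set side by side. The windows are from RefSeq on the rat assembly GRCr8, run from 250 bases before to 50 bases after the start that RefSeq gives, and are read 5′ to 3′ on the strand of the gene. Capitals mark the GC box GGGCGG, to which Sp-family factors are known to bind, and the cAMP response element TGACGTCA, each searched on both strands.
Vamp2 (chr10:54292539-54292838, forward strand): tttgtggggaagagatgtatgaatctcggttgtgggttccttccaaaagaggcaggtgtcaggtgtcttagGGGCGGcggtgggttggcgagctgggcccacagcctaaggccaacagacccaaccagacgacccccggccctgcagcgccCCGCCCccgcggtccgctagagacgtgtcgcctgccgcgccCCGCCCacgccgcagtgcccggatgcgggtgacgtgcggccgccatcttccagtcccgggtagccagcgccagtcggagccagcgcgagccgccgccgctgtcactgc
Syn1 (chrX:3725495-3725794, forward strand): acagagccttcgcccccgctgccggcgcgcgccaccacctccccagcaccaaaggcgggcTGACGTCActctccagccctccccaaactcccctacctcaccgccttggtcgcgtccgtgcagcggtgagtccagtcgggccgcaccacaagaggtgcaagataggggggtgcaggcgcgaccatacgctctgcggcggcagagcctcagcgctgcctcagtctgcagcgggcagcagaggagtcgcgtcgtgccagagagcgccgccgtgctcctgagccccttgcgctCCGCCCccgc
Syt1 (chr7:46244164-46244463, reverse strand): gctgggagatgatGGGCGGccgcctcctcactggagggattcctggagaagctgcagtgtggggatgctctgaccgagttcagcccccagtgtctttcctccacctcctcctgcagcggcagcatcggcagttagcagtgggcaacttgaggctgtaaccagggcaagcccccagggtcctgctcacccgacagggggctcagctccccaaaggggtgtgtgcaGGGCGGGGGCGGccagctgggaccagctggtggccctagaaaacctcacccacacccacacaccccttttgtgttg
Syp (chrX:17536400-17536699, reverse strand): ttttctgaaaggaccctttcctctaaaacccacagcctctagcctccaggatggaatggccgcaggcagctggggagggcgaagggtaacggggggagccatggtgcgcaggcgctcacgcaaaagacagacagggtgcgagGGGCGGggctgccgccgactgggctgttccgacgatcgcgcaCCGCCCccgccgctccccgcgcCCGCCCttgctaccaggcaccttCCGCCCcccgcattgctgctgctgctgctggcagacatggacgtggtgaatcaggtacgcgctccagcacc

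The GC box was found in 6 of the 7 member promoters that had an entry (all of those for Syn1, Syp, Syt1, Cplx1, Stx1a and Vamp2, not that for Snap23), and in 33.1% of all 33469 promoters. The windows of Syt1 and Syp held 3 and 4 GC boxes, that of Vamp2 held 3 and that of Syn1 held 1, so this letter string did not separate the well-counted members from those near 0. The cAMP response element was found in the Syn1 promoter alone, at position -190 from the start, and in 1.83% of all promoters. The string TTCAGCACC, the left part of the RE1 element that the repressor REST is known to bind, was found in 0 of the 7 windows and in 0.356% of all promoters. With so rare a string, 0 of 7 cannot tell whether these genes have an RE1 element. Inexact matches and sequence outside the windows were not searched. Snap25 and Vamp3 had no entry.

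The calcium sensor and the classical vesicle marker were almost not detected. Syt1 (ENSRNOG00000006426, chromosome 7), the calcium sensor of fast transmitter release, had 1, 2 and 6 counts in control replicates 1, 2 and 3 and 4, 1 and 2 counts in PCBP1-OE replicates 1, 2 and 3. Syp (ENSRNOG00000059720, chromosome X), which encodes the vesicle membrane protein synaptophysin, had control counts of 12, 9 and 4 against 6, 5 and 5 with PCBP1-OE. The groups overlapped for both genes. The summed counts gave a PCBP1-OE to control ratio of 0.792 for Syt1 (95% exact interval 0.251 to 2.39) and of 0.651 for Syp (0.325 to 1.27); these intervals cover counting error only and each includes 1. No change of either gene was detected, and changes within these intervals could not be resolved at this depth.

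Syn1 (ENSRNOG00000010365, chromosome X), which encodes synapsin I, was counted at moderate levels throughout. It was at 42.0, 38.0 and 37.5 CPM in control replicates 1, 2 and 3 and at 34.8, 37.3 and 34.4 CPM in PCBP1-OE. Every PCBP1-OE library lay below every control, but control replicate 3 and PCBP1-OE replicate 2 were almost level. The log2 fold change was -0.14 (standard error 0.07, 95% interval -0.29 to 0.00025), with an adjusted p of 0.176 (edgeR's quasi-likelihood test, Benjamini-Hochberg over all genes). Cplx1 (ENSRNOG00000000060, chromosome 14), the complexin of fast synapses, was low, with control counts of 57, 48 and 82 against 91, 67 and 65 with PCBP1-OE. Its groups overlapped, and the fitted change was 0.28 in log2 (standard error 0.20, interval -0.16 to 0.72; edgeR adjusted p = 0.397). As a percentage the interval ran from -10.6% to 64.7%.

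**Figure D1:**
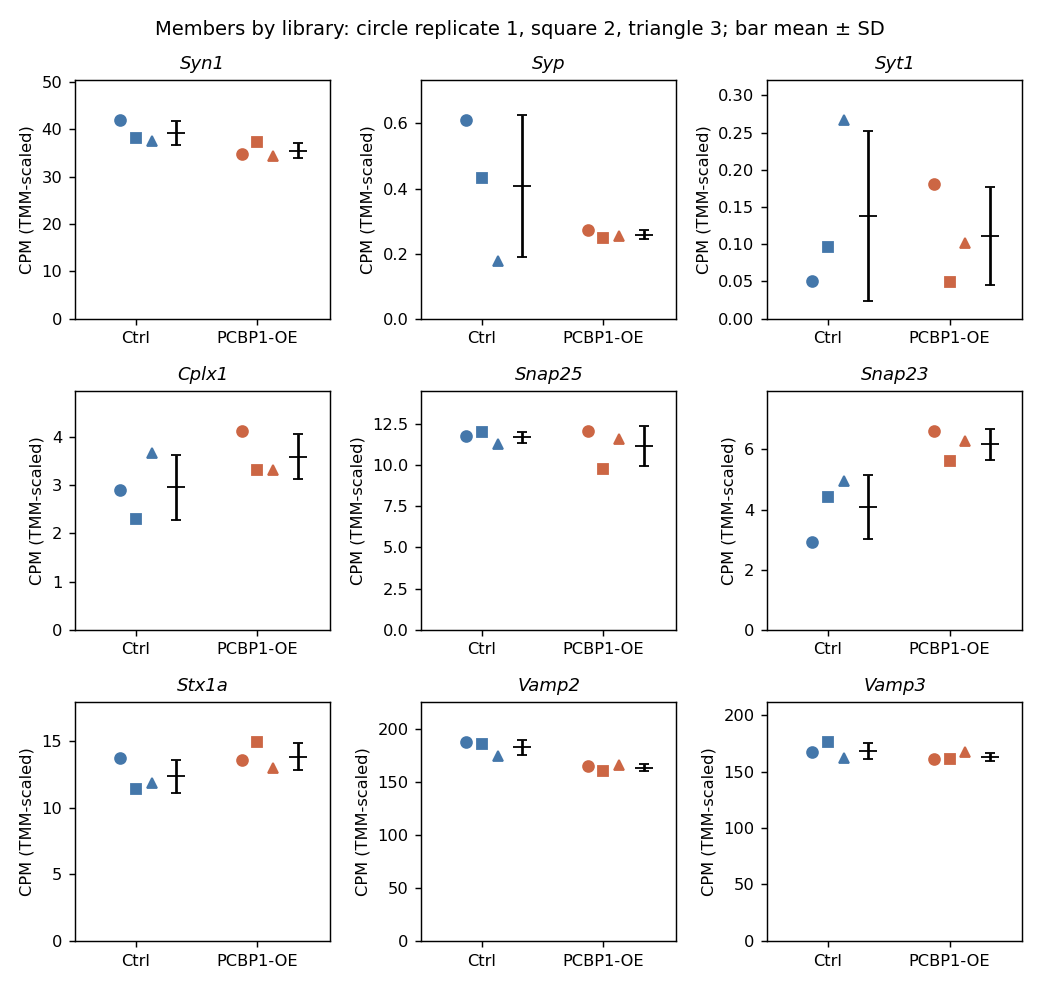
TMM-scaled CPM of each member (vertical axes, starting at 0, with a scale of their own) in the 3 Ctrl (blue) and 3 PCBP1-OE (orange) libraries; circles, squares and triangles are replicates 1, 2 and 3, and bars are the mean ± SD. The Vamp2, Syn1 and Snap23 points do not overlap between groups, while Syt1 stays under 0.3 CPM in all 6 libraries.

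Of the members that act as SNAREs of the plasma membrane, Snap25, Stx1a and Snap23, none passed the adjusted threshold in edgeR's quasi-likelihood test, and Snap23 alone had an unadjusted p under 0.05. Snap25 (ENSRNOG00000006037, chromosome 3), the neuronal family member, had control counts of 230, 250 and 253 against 266, 197 and 226 with PCBP1-OE, or 11.7 ± 0.352 and 11.1 ± 1.21 CPM (SD, n = 3 each). The groups overlapped, with PCBP1-OE replicate 2 the lowest and replicate 1 the highest of all 6. The log2 fold change was -0.07 (standard error 0.11, interval -0.31 to 0.17; adjusted p = 0.738 by edgeR's quasi-likelihood test), and it was 0.019 without PCBP1-OE replicate 2, so that its sign rested on that library. Stx1a (ENSRNOG00000029165, chromosome 12), the neuronal syntaxin, had control counts of 270, 239 and 267 against 299, 302 and 255 with PCBP1-OE, or 12.4 ± 1.23 and 13.9 ± 1.01 CPM (SD, n = 3 each). In CPM, control replicate 1 lay within the range of the PCBP1-OE libraries. The fitted change was 0.16 in log2 (standard error 0.11, interval -0.07 to 0.40; edgeR adjusted p = 0.344).

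Snap23 (ENSRNOG00000050552, chromosome 3), the widely expressed relative of Snap25, had the largest value among the tested members. Its control counts were 57, 92 and 111 and its PCBP1-OE counts 146, 113 and 123, or 2.91, 4.41 and 4.95 CPM against 6.63, 5.60 and 6.28 CPM. Each PCBP1-OE library exceeded each control, with control replicate 1 far below the other 2. The log2 fold change was 0.59 (standard error 0.19, interval 0.19 to 0.99), with an unadjusted p of 0.00748 by edgeR's quasi-likelihood test and an adjusted p of 0.0637, so Snap23 was not called. It passed an adjusted p of 0.05 in 4 of 14 alternatives: without control replicate 3 (0.0116), without the filter on low counts (0.0119), with edgeR's exact test (0.0340) and with DESeq2 (0.0448). Over all 14 the adjusted p ranged from 0.0116 to 0.216 and the log2 fold change from 0.40 to 0.75. RefSeq names a pseudogene Snap23-ps1, and only uniquely mapped reads were counted, so reads shared with such a copy may be missing from these counts.

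Of the vesicle SNAREs, Vamp2 fell slightly and Vamp3 did not pass the test. Vamp2 (ENSRNOG00000006989, chromosome 10), the vesicle SNARE of synapses and secretory granules, had control counts of 3676, 3871 and 3900 against 3620, 3220 and 3245 with PCBP1-OE. On the scaled libraries this was 187, 185 and 174 CPM against 164, 160 and 166 CPM, or 182 ± 7.32 and 163 ± 3.18 CPM (SD, n = 3 each). Every PCBP1-OE library lay below every control, and control replicate 3 lay nearest to them. The log2 fold change was -0.16 (standard error 0.05, interval -0.26 to -0.06), which is a level that fell by 10.5%, with an adjusted p of 0.0455 by edgeR's quasi-likelihood test.

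The call of Vamp2 depended on which libraries were used and on the processing. In edgeR's quasi-likelihood test it was lost without control replicate 1 (adjusted p = 0.209), control replicate 2 (0.227), or PCBP1-OE replicate 1 (0.157), 2 (0.162) or 3 (0.105). It was also lost under upper-quartile scaling (0.0664) and with the replicate number as a block (0.165). Without control replicate 3 the call was kept, with an adjusted p of 0.00701. The log2 fold change of Vamp2 was below 0 in all 14 alternatives, from -0.19 to -0.13. The fibroblast sum (nearly all Pdgfra), the leukocyte sum and Sox10 were also lower in all PCBP1-OE libraries than in all controls. They thus moved the same way as Vamp2 between groups, while the mean of Col1a1 did not. For 30.6% of all genes tested the groups did not overlap. The part of these markers in the change of Vamp2 was not tested.

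Vamp3 (ENSRNOG00000030055, chromosome 5), or cellubrevin, which serves recycling endosomes in most cells, was at 167, 176 and 162 CPM in controls and 161, 161 and 167 CPM in PCBP1-OE. The groups overlapped. The fitted change was -0.05 in log2 (standard error 0.05, interval -0.15 to 0.05; edgeR adjusted p = 0.542), and as a percentage the interval ran from -9.69% to 3.71%.

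**Figure D2:**
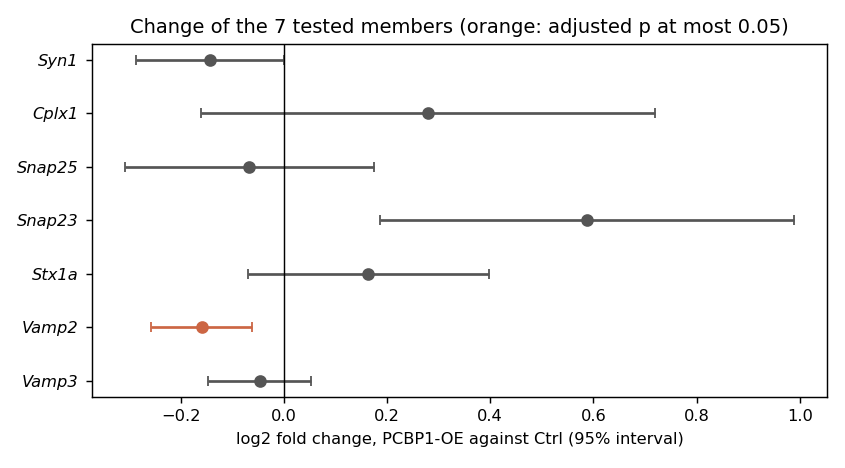
Log2 fold change of PCBP1-OE against Ctrl (horizontal axis) for the 7 tested members, from edgeR's quasi-likelihood fit to 3 against 3 libraries; points are estimates and bars 95% intervals. Vamp2 (orange), at -0.16, is the member that was called, and the interval of Snap23 runs from 0.19 to 0.99.

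**Figure D3:**
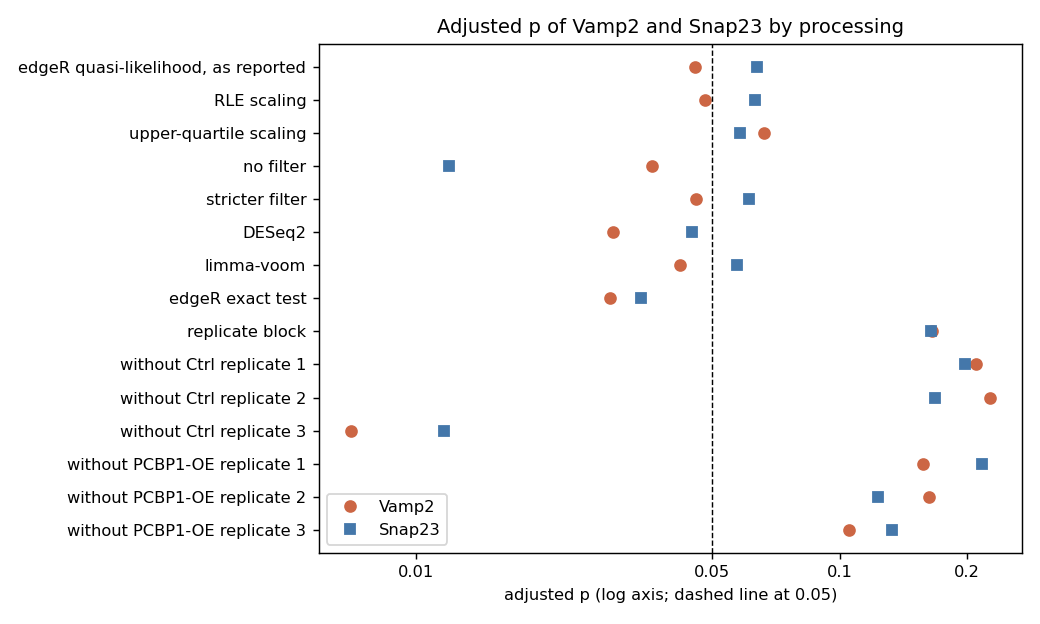
Adjusted p (horizontal log axis, dashed line at 0.05) of Vamp2 (circles) and Snap23 (squares) under the reported test and 14 alternatives. Vamp2 passes in 8 of the 15 settings, the reported one included, and Snap23 in 4, and leaving out control replicate 3 gives the lowest value of each.

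Across the whole table, 1193 of 12624 genes tested (9.45%) were called at an adjusted p of 0.05 at any fold change, 562 (4.45%) higher and 631 (5.00%) lower in PCBP1-OE; under upper-quartile scaling 655 were higher and 427 lower. Among the 7 tested members 1 was called, Vamp2, and it was lower. DEGs, with a change of at least 2-fold as well, made up 0.190% of all genes tested, and 0 members were DEGs by edgeR. Also with DESeq2, limma-voom and the other alternatives no tested member reached a 2-fold change. An unadjusted p under 0.05 was found for 2 members (Vamp2 and Snap23) and for 28.4% of all genes tested. The normalized values of 3 tested members did not overlap between groups (Vamp2, Syn1, Snap23), as for 30.6% of all genes. The median log2 fold change was -0.05 over the 7 tested members and 0.0029 over all genes, with 3 members above 0 and 4 below. Of the 7 that passed the filter, each was counted in all 6 libraries.

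The balance between the neuronal and the widely expressed relative was also compared within each library, where the scaling of libraries drops out. The ratio of Snap25 to Snap23 counts was 4.04, 2.72 and 2.28 in control replicates 1, 2 and 3 and 1.82, 1.74 and 1.84 in PCBP1-OE. The ratio of Vamp2 to Vamp3 counts was 1.12, 1.05 and 1.07 in controls against 1.02, 0.993 and 0.989 with PCBP1-OE. In both pairs all PCBP1-OE libraries lay below all controls; the Snap25 to Snap23 ratio varied far more among controls than among PCBP1-OE libraries, with control replicate 1 the highest. On the log2 scale the Snap25 to Snap23 ratio differed by -0.70 between group means (1.55 ± 0.422 in controls, 0.848 ± 0.0407 in PCBP1-OE, SD, n = 3 each), and that of Vamp2 to Vamp3 by -0.11 (0.113 ± 0.0488 and 0.00025 ± 0.0232). The two-sided exact permutation test gave p = 0.1 for each, also after Benjamini-Hochberg adjustment over the 2 ratios, and 0.1 is the smallest p that 3 against 3 libraries allow. Without control replicate 1 the difference for Snap25 to Snap23 was -0.47.

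**Figure D4:**
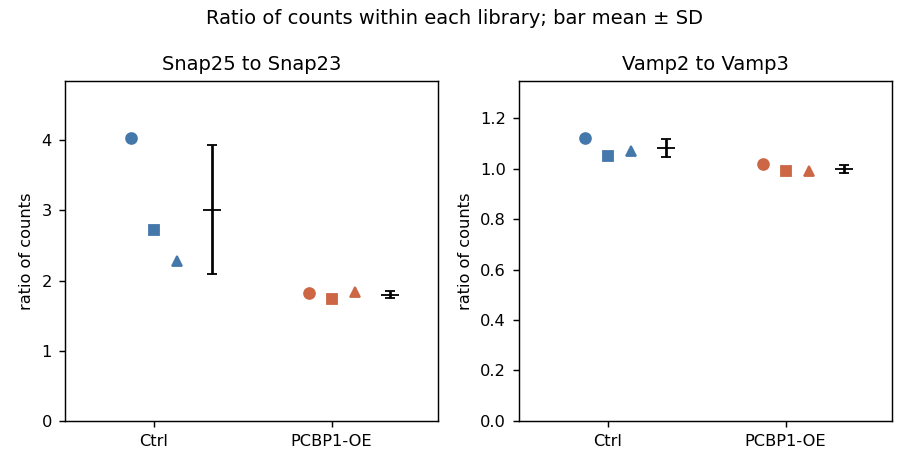
Ratio of counts within each library (vertical axes, starting at 0) for Snap25 to Snap23 (left) and Vamp2 to Vamp3 (right) in 3 Ctrl and 3 PCBP1-OE libraries; symbols are replicates 1, 2 and 3 as circle, square and triangle, and bars are the mean ± SD of the ratios. The Snap25 to Snap23 ratio of control replicate 1, at 4.04, stands above the other controls.

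The genes whose pattern over the 6 libraries was most like that of Vamp2 were Ptrf, a coat protein of caveolae (Pearson's r = 0.999 on log2 CPM), Penk, the precursor of enkephalin peptides (r = 0.998), and P4ha2, a collagen prolyl hydroxylase subunit (r = 0.997). These values are a description over 6 points that share their libraries and scaling. Penk, which is stored in the dense-core granules of secretory cells, was at 230, 227 and 202 CPM in controls and 183, 177 and 188 CPM with PCBP1-OE. The log2 fold changes were -0.10 for Ptrf, -0.26 for Penk and -0.16 for P4ha2, given with no test since these genes were chosen for resembling a called gene.

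A wider list held 85 further genes of vesicles, SNAREs, priming, active zones and SNARE recycling. Of these, 78 matched the table by symbol, in 79 rows since Sytl2 has 2, and 7 were not analysed here (Syn2, Synpr, Sv2b, Slc18a3, Doc2b, Stxbp5l and Rims4). Among the 79 rows, 47 were tested and 32 were not, the latter with at most 14 counts in any library. The genes not tested include several that are specific to neurons or endocrine cells, and those named here were chosen after their values were seen. The priming factor gene Cadps had 0 to 2 counts, the calcium sensor genes Syt7 and Syt9 0 to 1 and 0 to 3, and the monoamine transporter gene Slc18a2 0 to 3. Together with Syt1 and Syp, they were near 0 in both groups.

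Of the 47 tested rows, 2 were called, 1 higher and 1 lower, against 9.45% of all genes; 16 had an unadjusted p under 0.05, 5 with values above 0 and 11 below, where over all genes 28.4% had such a p, 1722 above 0 and 1866 below. The median log2 fold change was -0.05, with 17 values above 0 and 30 below. Vamp8 (ENSRNOG00000012748), a vesicle SNARE of endosomes and of exocytosis in non-neuronal cells, fell from 76.8 ± 4.99 to 65.8 ± 1.24 CPM (SD, n = 3 each), or by 0.22 on the log2 scale (standard error 0.05; adjusted p = 0.0268 by edgeR's quasi-likelihood test). Its PCBP1-OE libraries, with 1424, 1324 and 1314 counts, lay below the controls, with 1557, 1670 and 1594, on the scaled values too. Sypl1 (ENSRNOG00000009856), a relative of synaptophysin found in many tissues, rose from 46.3 ± 9.26 to 59.5 ± 3.37 CPM (SD, n = 3 each), or by 0.36 on the log2 scale (standard error 0.11; edgeR adjusted p = 0.0488). For Sypl1 the groups overlapped, since control replicate 3 had 1267 counts against 754 and 915 in the other controls and 1386, 1199 and 1100 in PCBP1-OE. Each of these calls was lost with any 1 library other than control replicate 3 left out, with adjusted p up to 0.136 for Vamp8 and 0.192 for Sypl1.

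By family, the vesicle SNAREs other than Vamp2 and Vamp3 had 1 of 4 tested genes called (Vamp8), and the vesicle membrane proteins and synapsins 1 of 7 (Sypl1); Syngr2, the member of that family with most counts, had a log2 fold change of -0.04 (adjusted p = 0.734, same edgeR test). In the other families 0 genes were called by edgeR's quasi-likelihood test, and the counts of unadjusted p under 0.05 that follow, each over 7 genes or fewer, stand beside 28.4% of all genes tested. Of the 5 tested synaptotagmins, all with values below 0, 2 had an unadjusted p under 0.05, and among them Syt11 was at 133 ± 4.82 and 123 ± 2.98 CPM (SD, n = 3 each; log2 fold change -0.11, adjusted p = 0.129). Of the 4 further SNAREs of the plasma membrane, 2 had such a p, and Stx4 was at -0.09 (adjusted p = 0.214). Of the 4 syntaxin-binding proteins, 3 had such a p. Rab3, Rab27 and their effectors had 4 of 7 with an unadjusted p under 0.05 (28.4% of all genes tested had one), the 4 with values below 0, and Sytl2, with most counts there, was at -0.14 (adjusted p = 0.154). Among them Sytl1, named after its values were seen, was at -0.85 (adjusted p = 0.0532) and was called by edgeR's exact test, without the filter and with the stricter filter. The 6 priming and active-zone genes had values above 0, from 0.014 to 0.61, and 0 with an unadjusted p under 0.05; the scaffold gene Erc1 was at 0.014 (adjusted p = 0.924). Complexin 2 (Cplx2), the complexin that was tested beside Cplx1, was at 0.24 (adjusted p = 0.419). Of the SNARE-recycling genes, 1 of 6 had an unadjusted p under 0.05, and Napa, which encodes the adaptor that loads the ATPase Nsf onto SNAREs, was at -0.08 (adjusted p = 0.297). Among 3 tested vesicular transporters, with 1 under that p, the glutamate transporter gene Slc17a6 was at -0.49 (adjusted p = 0.235) and rested on 26 to 53 counts per library.

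**Figure D5:**
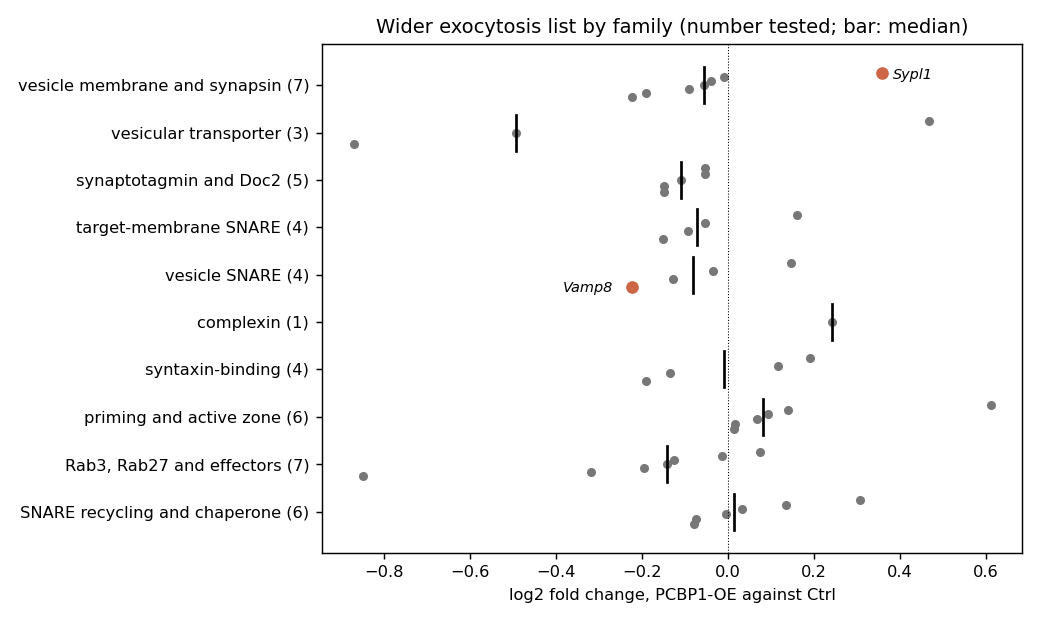
Log2 fold change of PCBP1-OE against Ctrl (horizontal axis) of the 47 tested rows of the wider list, by family (number tested in parentheses); each point is a gene, orange points are called at an adjusted p of 0.05, and the short bar is the median of the family. The called genes are Sypl1, at 0.36, and Vamp8, at -0.22.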

How the data were processed

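RNA-seq counts of 6 libraries, 3 Ctrl and 3 PCBP1-OE, were used, and each column was matched to its sample by title. The table that the authors deposited holds raw read counts for each gene, and per their methods, reads were trimmed with FASTX-Toolkit, aligned by TopHat2 to Rnor_6.0 of the rat and counted where uniquely mapped. The submitters' processing notes name the build GRCh38, a human assembly, which the rat gene identifiers contradict. Which tool counted the reads, whether it used strand and which annotation it read is not given in the sources used here. Overlapping genes are therefore uncertain. Nothing states whether replicates were separate transfections, so p-values measure the spread between these libraries. Library totals of 19730209 to 22315623 counts set the precision.

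The filterByExpr function of edgeR, with a minimum count of 10 and a minimum total of 15, kept 12624 genes and left out 7985. Libraries were scaled by TMM and tested by quasi-likelihood in edgeR 4.0.16 under R 4.3.3, with Benjamini-Hochberg adjustment over all genes tested. A gene was called at an adjusted p of 0.05 or less, and a DEG also changed at least 2-fold. Intervals are 95%, from the standard error and the moderated degrees of freedom. Ratios within libraries were compared by exact permutation tests. Log2 CPM used a prior count of 2.

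The members and lists were chosen with earlier results of these data known. Named are all members, the called genes of the wider list, its gene with most counts in each family, all markers, and the 3 genes nearest to the member with the smallest p in Pearson's r. The alternative tests were DESeq2 1.42.0, limma-voom (limma 3.58.1) and edgeR's exact test. The alternative scalings were upper-quartile and RLE, and the filter was dropped or raised to 1 CPM in 3 libraries. Each library was left out in turn, and the replicate number was added as a block. The chi-square per gene between replicates, 5.49 to 16.0, exceeded that of sampling noise. Symbols without a row in the table (Col1a2, Lum and Pecam1 among the markers) were not analysed here, and some listed genes are not reported here by name.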

Additional observations from a re-analysis of the deposited data

How the results depend on the processing

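Of the 9 members, the number called was 1 in the reported fit (Vamp2), 0 under upper-quartile scaling, and 2 (Vamp2 and Snap23) without a filter, with DESeq2 and with edgeR's exact test. Leaving out 1 library gave 0 to 2 called members, with 2 only without control replicate 3. For the wider list the number called, 2 as reported, ran from 0 to 9 with 1 library left out, again highest without control replicate 3. Over all genes the number called, 1193 as reported, was 2090 without a filter and ran from 48 (without control replicate 2) to 2860 (without control replicate 3) with 1 library left out. The cause was not tested, beyond the smaller number of samples in those fits. Snap25 changed sign without PCBP1-OE replicate 2 (0.019), where leaving out 1 library gave -0.13 to 0.019. The other 6 tested members kept their direction in all 14 alternatives. Both ratios kept their direction, from -0.88 to -0.47 for Snap25 to Snap23 and from -0.13 to -0.085 for Vamp2 to Vamp3.

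With the replicate number as a block, 0 members, 0 genes of the wider list and 16 genes in all were called, and Vamp2 was at -0.16 (adjusted p = 0.165 by edgeR's quasi-likelihood test). The deviations of same-numbered libraries from their group means had correlations of -0.078, -0.051 and -0.043 over genes, and no library correlated best with its own number. Whether same-numbered libraries were prepared together is not given in the sources used here, and these correlations cannot decide it. The paired exact sign-flip permutation test of the ratios cannot go below p = 0.25, which both gave. Syt1 and Syp, fitted without the filter, were at -0.31 (standard error 1.0) and -0.62 (standard error 0.60).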
